A study of Oncorhynchus mykiss with 6 samples.

Results

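Melanosomes, the pigment granules of melanophores, are carried through the cell by small GTPases of the Rab family and the motors these recruit. In mouse melanocytes Rab27a sits on the granule, melanophilin binds the active Rab27a and, at its other end, myosin Va, and this motor holds the granule on actin filaments at the cell edge. Rab32 and Rab38 act earlier, in bringing melanin enzymes to the granule as it forms, and Rab27b is a close relative of Rab27a best known from secretory cells. In fish melanophores granules also travel along microtubules, which lets the skin lighten and darken, and zebrafish that lack melanophilin a keep their granules drawn together in the middle of the cell.

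The genes described here are the copies of melanophilin, myosin Va, Rab27a, Rab27b, Rab32 and Rab38 in the skin of rainbow trout (Oncorhynchus mykiss) of a yellow mutant type. They were taken by symbol: a row of the deposited gene table was included when its symbol, apart from capitals and a copy ending, was mlph, myo5a, rab27a, rab27b, rab32 or rab38. This gave 23 of 43862 rows, of which 3 were MLPH, 2 Rab27a, 6 Myo5a, 4 Rab27b, 4 RAB32 and 4 Rab38. Of these 20 carried an NCBI gene number and 3, all Myo5a, had an MSTRG name, which marks transcripts assembled from the reads. Copies are told apart by the gene number given in brackets. The product name of the table names the same gene as the symbol in all but 3 rows: Myo5a (110524289) is called a myosin-Vb-like protein, and Rab32 (110500312) and Rab32 (110531433) are called Rab-38-like.

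For each of 2 ages, day 1 and day 90, 3 libraries were made from dorsal skin of the mutant. Every library is of the yellow mutant, so ages are compared and colours are not. The series' design names 3 stages, and the other stage was not analysed here. Nothing in the labels says that libraries came from separate fish or whether fish were pooled, so p-values measure the spread between these libraries, which may be technical.

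Total counts ran from 16157312 to 18960866 per library, and the 23 rows held 0.0236% to 0.0448% of them. The libraries of the ages differed in tissue. Summed over 85 epidermis rows, keratins and desmosome genes among them, FPKM (fragments per length of transcript and depth of library) was 3812 to 3833 at day 1 and 13384 to 16750 at day 90, so that skin markers were present at both ages. Summed over 52 neuron rows it was 1059 to 1194 and 243 to 263, with 10 rows at 0 in each day 90 library. Over 39 rows of lens and photoreceptor it was 2247 to 2916 and 1.75 to 2.0, with 23 rows at 0 at day 90. Over 15 rows of retinal pigment epithelium, a pigmented tissue of the eye, it was 46.5 to 50.2 and 8.91 to 9.49, with 2 rows at 0 at day 90. Over 46 muscle rows it was 14942 to 18784 at day 1, 7939 in day 90 replicate 1 and 2308 and 2168 in the other day 90 libraries. Over 20 leukocyte rows it was 37.7 to 50.8 at day 1 and 580 to 705 at day 90. Of the 15 tested 13 were higher, against 32.5% of all genes tested. This rise ran in the direction of the rising Rab and MLPH copies, as did that of the epidermis rows (55 of 75 tested higher). The part of these tissues in the results below was not tested. The day 1 libraries, described as dorsal skin, also held RNA of lens, photoreceptor and neuron genes. The ages are thus compared as whole libraries and not as skin alone. In such libraries, fewer cells of a type and less RNA per cell cannot be told apart.

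A gene was tested if 3 or more of the 6 libraries reached 1 FPKM, by edgeR's quasi-likelihood test on counts, with p-values adjusted over all 29436 genes tested and a threshold of 0.05. Of the 23 copies 19 passed this filter on low values, and 14 of the 19 stood at FPKM of at least 1 in all 6 libraries. Rab38 (110507979) passed it through its day 90 libraries alone. MLPH (110513724) reached 1 FPKM in 1 day 1 library, and MLPH (110501274) and RAB27B (110525428) in 2 each. These copies too would not have passed without their day 90 libraries. Between the ages 14 of the 19 were higher at day 90, 1 was lower and 4 did not pass the threshold, where 32.5% of all genes tested were higher, 35.4% lower (67.9% in either direction) and 32.1% not past it. The median log2 fold change of day 90 over day 1 was 1.26 over the 19 and -0.03 over all genes tested. By at least 2-fold, 11 copies were higher, against 16.2% of all genes tested. In FPKM, 14 copies were higher and 3 lower with no overlap between the ages, against 22.3% and 52.9%. The count in each direction depends on how libraries are scaled. It was 14 higher and 3 lower with library size alone, where 20.5% of all genes were higher and 50.1% lower. Under epidermis scaling it was 4 higher and 10 lower, where 4.0% of all genes were higher and 89.6% lower. That scaling compares each epidermis row's count with the row's geometric mean across libraries, and sets libraries equal in the median of these ratios. Only epidermis rows with reads in every library enter it. Library size alone and epidermis scaling move the median of all genes tested to -0.42 and -1.91, and the values of the 19 copies move with it. DESeq2 gave 14 higher and 1 lower, against 30.8% and 35.3% of all genes. Limma on log2(FPKM + 1) gave 14 and 3, against 20.7% and 50.8%. With no filter on low values all 23 copies were tested and 16 were higher and 3 lower, against 27.3% and 33.6%.

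**Figure D1:**
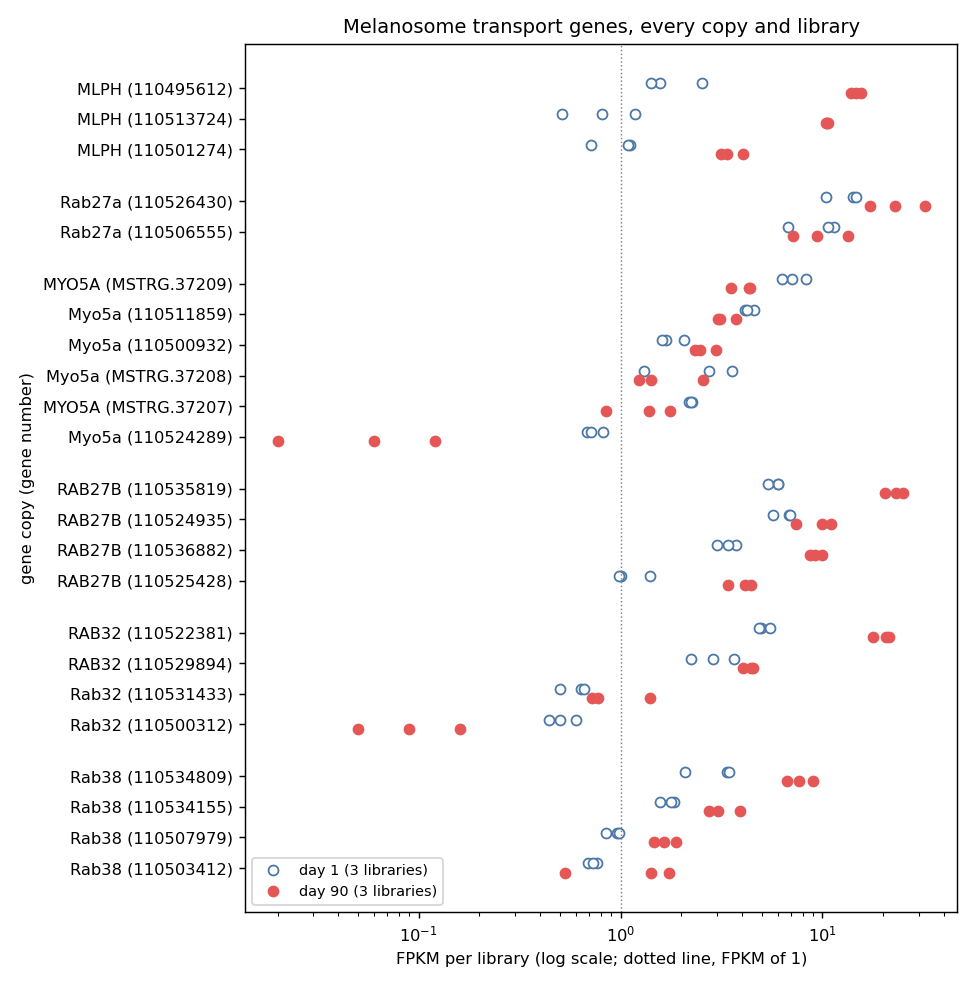
FPKM of each of the 23 gene copies in each library on a log axis, with open circles for the 3 day 1 libraries and filled circles for the 3 day 90 libraries; the dotted line marks an FPKM of 1. MLPH (110495612) and MLPH (110513724) show the widest gaps between the ages among the tested copies, and the circles of Rab27a (110506555) overlap.

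Melanophilin, the linker between Rab27a and myosin Va, rose in each of its 3 copies, with the highest fold changes of the group in 2 of them. MLPH (110495612) stood at 2.52, 1.57 and 1.42 FPKM in the day 1 libraries and at 13.80, 15.54 and 14.59 in the day 90 libraries. MLPH (110513724) stood at 0.81, 1.18 and 0.51 and then at 10.52, 10.67 and 10.43 FPKM. MLPH (110501274) stood at 1.11, 0.71 and 1.09 and then at 3.15, 3.35 and 4.02 FPKM. For each copy the 3 day 90 libraries lay above the 3 day 1 libraries, and the day 90 libraries lay close together.

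MLPH (110513724) rose by a log2 fold change of 4.05 ± 0.22 (SE; edgeR, adjusted p = 3.96e-07), and this fold ranked at the 98.8th percentile of all genes tested. MLPH (110495612) rose by 3.40 ± 0.19 (adjusted p = 4.57e-07), at the 98.2nd percentile. MLPH (110501274) rose by 2.22 ± 0.20 (adjusted p = 9.03e-06). The first pair also rose under epidermis scaling, by 2.18 and 1.53, while MLPH (110501274) then stood at 0.34 and did not pass (adjusted p = 0.162). Day 1 counts were small for MLPH (110513724), with 39, 57 and 26 reads against 542, 488 and 458 at day 90.

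The most abundant copy held about the same share of melanophilin transcript at both ages. MLPH (110495612) made up 49.7% ± 6.2 of the summed MLPH FPKM at day 1 and 51.0% ± 1.3 at day 90 (SD, n = 3 libraries per age). MLPH (110513724) made up 23.1% ± 9.6 and 36.8% ± 1.3, and MLPH (110501274) 27.2% ± 8.0 and 12.2% ± 1.4. At day 1 the share of MLPH (110513724) was 34.1% in replicate 2 and 18.2% and 16.9% in the others, so the ages differ by about the size of that spread.

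Rab27a, the Rab that carries melanophilin on the melanosome, had the highest summed mean FPKM of the 6 genes at day 1. Rab27a (110526430) stood at 14.20, 14.60 and 10.47 FPKM at day 1 and at 17.27, 22.98 and 32.24 at day 90. Its ages did not overlap, and it rose by 1.26 ± 0.19 on the log2 scale (edgeR, adjusted p = 0.000317). Rab27a (110506555) stood at 11.39, 10.68 and 6.75 and then at 7.18, 9.45 and 13.37 FPKM. Its ages overlapped and it did not pass (0.44 ± 0.22, adjusted p = 0.113), though it passed when day 90 replicate 1 was left out (0.58, adjusted p = 0.0368). Under epidermis scaling both copies were lower at day 90, by -0.63 and -1.44.

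Within a library the proportion of the Rab27a copies differed between the ages. The FPKM of Rab27a (110526430) was 1.25, 1.37 and 1.55 times that of Rab27a (110506555) in the day 1 libraries and 2.41, 2.43 and 2.41 times in the day 90 libraries. The day 90 libraries thus varied in the level of both copies but hardly in their ratio. A ratio within a library does not depend on the scaling between libraries. It may depend on how reads shared by near-identical copies were treated, which is not stated. This holds for every copy ratio and copy share given here. For each gene the pair was the 2 tested copies with the highest mean FPKM over all 6 libraries, the higher one as numerator. That choice draws on the day 90 values and favours a ratio that rises. A direction shared by several genes is thus partly built in. With 3 libraries against 3 an exact permutation test cannot go below p = 0.1, which is what it gave here (two-sided; adjusted p = 0.132 over the 25 ratios tested).

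Markers of mucous cells, among other lists, varied across the libraries beside Rab27a. Over 35 mucous cell rows, summed FPKM was 440, 515 and 352 at day 1 and 602, 814 and 1100 at day 90. Summed over both copies, Rab27a stood at 25.6, 25.3 and 17.2 and then at 24.5, 32.4 and 45.6 FPKM in the same libraries. Both were lowest in replicate 3 among the day 1 libraries and highest in replicate 3 among those of day 90. This order is not particular to mucous cells: 8 of the 16 gene lists summed here showed it, among them those of epidermis, leukocytes, other pigment cells and other Rabs. Of the mucous list's 12 tested genes 9 were higher at day 90 and 1 lower, against 32.5% and 35.4% of all genes tested. Of its 35 rows 5 were at 0 in all day 90 libraries. The most abundant marker, agr2 (110496454), of the secretory machinery of mucous cells, stood at 281, 334 and 186 and then at 409, 527 and 683 FPKM. Its part in the Rab27a values was not tested.

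Myosin Va, the actin motor, is spread over 6 rows of which 5 were tested. MYO5A (MSTRG.37209) stood at 7.05, 6.31 and 8.27 FPKM at day 1 and at 3.53, 4.32 and 4.39 at day 90. It was the tested copy that fell, by 0.45 on the log2 scale (log2 fold change -0.45 ± 0.13, edgeR adjusted p = 0.0148). Myo5a (110500932) went the other way, from 1.67, 2.05 and 1.60 to 2.97, 2.34 and 2.46 FPKM, and rose by 0.95 ± 0.17 (adjusted p = 0.000653). Under epidermis scaling it was lower at day 90 (-0.91).

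Myo5a (110511859), the row with the longest transcript, stood at 4.13, 4.6 and 4.25 FPKM at day 1 and at 3.03, 3.12 and 3.74 at day 90. Its FPKM did not overlap between the ages, yet its log2 fold change was -0.01 ± 0.10 (adjusted p = 0.957) with TMM factors, which correct for how the abundant genes of each age take up reads. With library size alone it was lower (-0.39). MYO5A (MSTRG.37207) and Myo5a (MSTRG.37208) did not pass, at -0.36 ± 0.27 (adjusted p = 0.255) and -0.16 ± 0.40 (adjusted p = 0.732). The FPKM of MYO5A (MSTRG.37207) did not overlap between the ages, at 2.18, 2.25 and 2.24 and then 1.38, 0.85 and 1.75, and it was lower with library size alone (-0.75, adjusted p = 0.0341), limma (adjusted p = 0.0156 and 0.0246 with pseudocounts of 1 and 0.1) and epidermis scaling (-2.23).

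The lengths that counts and FPKM together imply were about 12300 bases for Myo5a (110511859), 7200 for MYO5A (MSTRG.37209), 6000 for Myo5a (110500932), 1700 for MYO5A (MSTRG.37207) and 900 for Myo5a (MSTRG.37208). The assembled loci carry consecutive numbers, and the files do not tell whether they are pieces of a single gene. A sum of FPKM over the Myo5a rows would then count such a gene more than once. The sixth row, Myo5a (110524289), whose product name is myosin-Vb-like, was below the filter at 0.68, 0.71 and 0.82 and then 0.06, 0.02 and 0.12 FPKM.

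**Figure D2:**
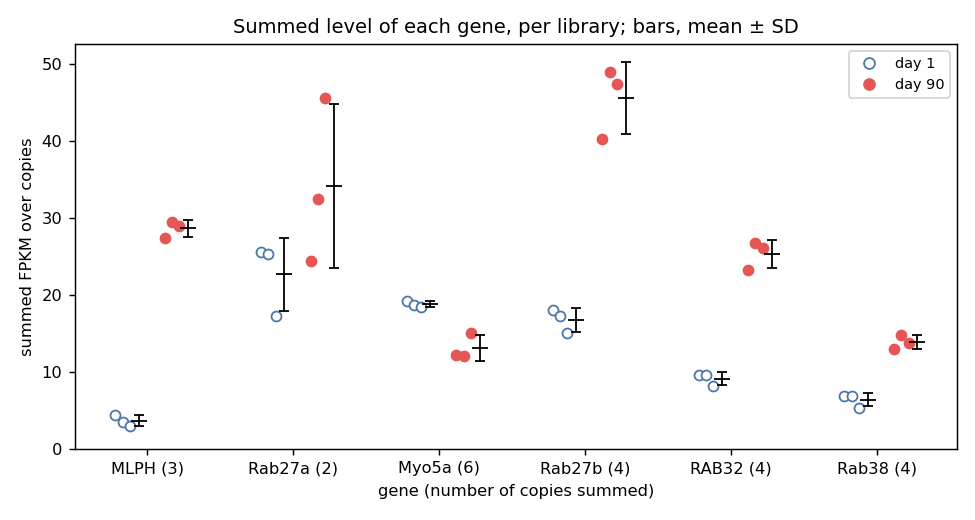
Summed FPKM over all copies of each gene, per library (circles, set side by side for visibility), with the mean ± SD of the 3 libraries of each age beside them; the vertical axis starts at 0. MLPH goes from a mean of 3.64 at day 1, the lowest of the 6 genes, to 28.7 at day 90, and Myo5a from 18.8 to 13.1. FPKM carries no TMM factors, with which 1 of the 5 tested Myo5a copies was lower, 1 higher and 3 not past the threshold.

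Set per length and summed over copies, transcripts for the partners of this motor complex stood in other proportions at the ages. These are RNA values of whole libraries described as dorsal skin, which at day 1 also held lens, photoreceptor and neuron transcripts. Their tissue makeup differed between the ages as given above. Proportions of the proteins, or within melanophores, were not measured. From day 1 to day 90, MLPH went from 3.64 ± 0.73 to 28.7 ± 1.1 FPKM (SD, n = 3), Rab27a from 22.7 ± 4.7 to 34.2 ± 10.7, with overlapping libraries, and Myo5a from 18.8 ± 0.42 to 13.1 ± 1.7. The summed MLPH FPKM was 0.137 to 0.175 times that of Rab27a in the day 1 libraries and 0.637 to 1.12 times in the day 90 libraries. It was 0.163 to 0.230 times that of Myo5a at day 1 and 1.93 to 2.45 times at day 90. Neither ratio overlapped between the ages (exact permutation test, two-sided, p = 0.1 for each, the smallest that 3 against 3 allows). These summed ratios were chosen after their values were seen. The Myo5a sum may count a gene more than once, as said above. The sums carry no TMM factors, with which 1 of the 5 tested Myo5a copies was lower, 1 higher and 3 not past the threshold. The ratios within a library do not depend on such factors.

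Rab27b, the relative of Rab27a, was higher at day 90 in each of its 4 copies, and under epidermis scaling in 1 of them, with 1 lower and 2 not past the threshold. RAB27B (110535819) stood at 6.05, 6.0 and 5.37 FPKM at day 1 and at 20.33, 25.05 and 23.23 at day 90, up by 2.36 ± 0.11 on the log2 scale (edgeR, adjusted p = 1.68e-07). RAB27B (110525428) went from 1.40, 1.01 and 0.98 to 3.40, 4.15 and 4.44 FPKM (2.2 ± 0.20). RAB27B (110536882) went from 3.74, 3.39 and 3.01 to 9.17, 9.96 and 8.70 FPKM (1.81 ± 0.13). For each of these the day 90 libraries lay above those of day 1.

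RAB27B (110524935), the most abundant Rab27b copy at day 1, changed less. It stood at 6.80, 6.90 and 5.69 FPKM and then at 7.36, 9.91 and 11.08, a log2 fold change of 0.92 ± 0.13 (adjusted p = 0.000212), and was lower (-0.97) under epidermis scaling. RAB27B (110535819) was 0.890, 0.870 and 0.944 times as high as RAB27B (110524935) within the day 1 libraries and 2.76, 2.53 and 2.1 times within the day 90 libraries. The order of these copies, as reads were assigned to them, thus turned over between the ages in each library (exact permutation test, two-sided, p = 0.1, adjusted p = 0.132). RAB27B (110524935) made up 38.5% ± 1.2 of the summed Rab27b FPKM at day 1 and 20.6% ± 2.6 at day 90, and RAB27B (110535819) 34.7% ± 1.0 and 50.2% ± 1.1.

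**Figure D3:**
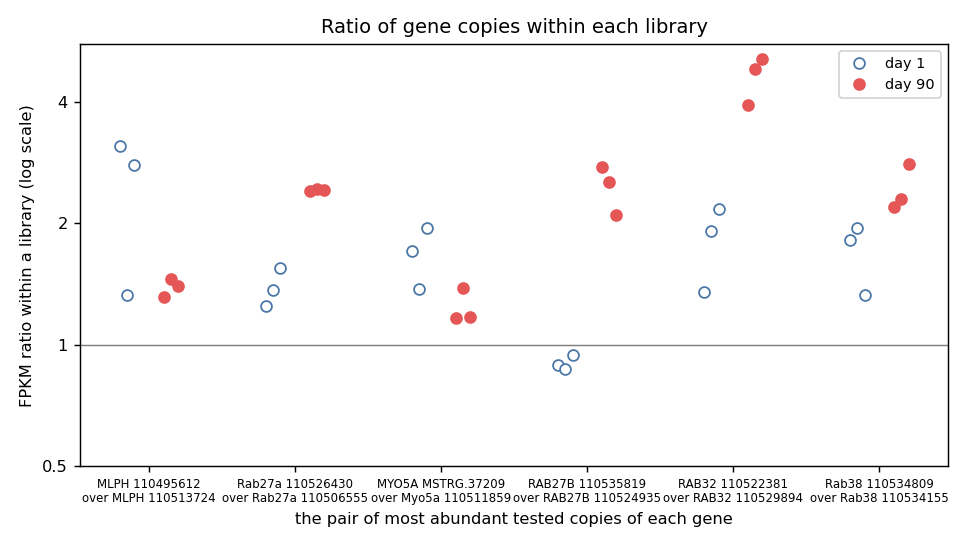
Ratio of FPKM within each library between the pair of most abundant tested copies of each gene, on a log axis, with open circles for day 1 and filled circles for day 90. Day 90 lies above day 1 with no overlap for Rab27a, RAB27B, RAB32 and Rab38, and the ages overlap for MLPH and MYO5A. The numerator is the copy with the higher mean FPKM over all 6 libraries, a choice that favours rising ratios.

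Rab32 and Rab38 help deliver melanin enzymes to the melanosome. RAB32 (110522381) stood at 4.96, 5.52 and 4.83 FPKM at day 1 and at 17.83, 21.41 and 20.56 at day 90 and rose by 2.35 ± 0.11 (edgeR, adjusted p = 1.6e-07), also under epidermis scaling (0.46, adjusted p = 0.00517). RAB32 (110529894) stood at 3.66, 2.88 and 2.23 and then at 4.55, 4.43 and 4.04 FPKM and rose by 0.96 ± 0.20 (adjusted p = 0.0018), but was lower (-0.91) with that scaling. Within a library RAB32 (110522381) was 1.36 to 2.17 times as high as RAB32 (110529894) at day 1 and 3.92 to 5.09 times at day 90 (exact permutation test, two-sided, p = 0.1; adjusted p = 0.132).

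The tested Rab38 copies rose, and none rose under epidermis scaling. Rab38 (110534809) stood at 3.35, 3.46 and 2.09 FPKM at day 1 and at 6.69, 8.95 and 7.66 at day 90 (1.77 ± 0.19 on the log2 scale, adjusted p = 2.68e-05 by edgeR). Rab38 (110534155), named rab38c in RefSeq, stood at 1.84, 1.78 and 1.57 and then at 3.04, 3.90 and 2.73 FPKM (1.28 ± 0.21). Rab38 (110507979) stood at 0.96, 0.85 and 0.98 and then at 1.89, 1.46 and 1.64 FPKM (1.23 ± 0.27), from 16 to 19 reads at day 1 and 26 to 38 at day 90. In each of them the day 90 libraries were the higher. Rab38 (110534809) was 1.33 to 1.94 times as high as Rab38 (110534155) within the day 1 libraries and 2.2 to 2.81 times within those of day 90 (exact permutation test, two-sided, p = 0.1; adjusted p = 0.132).

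Among the rows below the filter, Rab32 (110500312), with a Rab-38-like product name, stood at 0.44, 0.60 and 0.50 FPKM at day 1 and at 0.05, 0.16 and 0.09 at day 90. Rab32 (110531433) stood at 0.50, 0.64 and 0.66 and then at 0.77, 0.72 and 1.40, and Rab38 (110503412) at 0.69, 0.76 and 0.73 and then at 1.42, 0.53 and 1.74. With no filter on low values, Rab32 (110500312) was lower at day 90 (-1.93 ± 0.51, edgeR adjusted p = 0.00778), as was Myo5a (110524289) (-3.20 ± 0.41, adjusted p = 7.54e-05). Rab32 (110531433) and Rab38 (110503412) were then higher, by 1.09 ± 0.39 (adjusted p = 0.0332) and 1.18 ± 0.47 (adjusted p = 0.0492). The rows that were lower fell beside the neuron and eye markers of the same libraries, whose values are given above and whose part was not tested.

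Summed over copies, the genes ranked at day 1 as Rab27a, Myo5a, Rab27b, RAB32, Rab38 and MLPH, with 22.7, 18.8, 16.8, 9.14, 6.35 and 3.64 FPKM. The libraries of Rab27a and Myo5a overlapped there, and no other neighbours did. At day 90 the order was Rab27b, Rab27a, MLPH, RAB32, Rab38 and Myo5a, with 45.6, 34.2, 28.7, 25.3, 13.9 and 13.1 FPKM. Of these neighbours Rab27b and Rab27a, Rab27a and MLPH, and Rab38 and Myo5a overlapped.

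**Figure D4:**
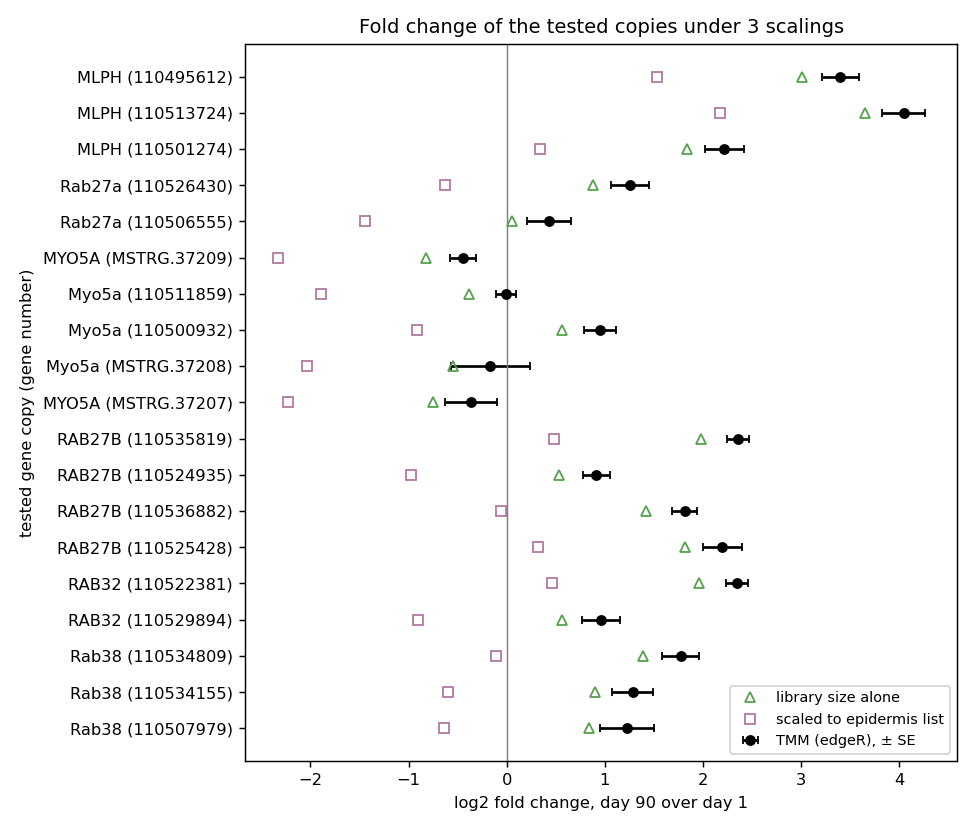
Log2 fold change of day 90 over day 1 for the 19 tested copies: black circles with SE bars from edgeR with TMM factors, triangles with library size alone and squares under epidermis scaling. The first pair of MLPH copies, RAB27B (110535819) and RAB32 (110522381) are past the threshold as higher under each of them.

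Set against the genes that make and line the melanosome, the copies divided. The comparison list held 23 rows of tyr, tyrp1, dct, pmel, mlana, slc45a2, oca2, slc24a5 and gpr143, whose summed FPKM was 176 to 190 at day 1 and 683 to 774 at day 90. Of its 21 tested rows 15 were higher at day 90 and 6 lower, against 32.5% and 35.4% of all genes tested. The ratio of a copy to this sum does not depend on scaling. It was higher at day 90 with no overlap for 2 of the 19 tested copies, lower with no overlap for 13 and overlapping for 4, where 2.78% of all genes tested were higher and 92.8% lower.

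The higher pair were MLPH (110513724), at 0.00290 to 0.00623 times the list's sum at day 1 and 0.0138 to 0.0153 times at day 90, and MLPH (110495612), at 0.00807 to 0.0133 and 0.0196 to 0.0214 times. The overlapping copies were MLPH (110501274), RAB27B (110535819), RAB27B (110525428) and RAB32 (110522381). RAB32 (110522381) stood at 0.0261 to 0.0292 times the sum at day 1 and 0.0253 to 0.0301 times at day 90, a difference of 0.0041 on the log2 scale. Both Rab27a copies, the 5 tested Myo5a copies and the 3 tested Rab38 copies were lower relative to the list, as were RAB27B (110536882), RAB27B (110524935) and RAB32 (110529894), with MYO5A (MSTRG.37209) lowest at -2.78 on the log2 scale. The smallest p that the exact permutation test can give was reached by the copies that did not overlap (p = 0.1, two-sided).

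The 6 falling rows of the comparison list held 34.0% to 40.0% of its sum at day 1 and 0.706% to 1.06% at day 90. Leaving them out was a choice made after the values were seen. The list's sum was then 106 to 125 FPKM at day 1 and 677 to 766 at day 90. Dropping falling rows shifts the age difference of every copy down by the same log2 amount. The shift is thus no result about single copies. With it, RAB32 (110522381) stood lower at day 90 with no overlap (-0.66 on the log2 scale), as did RAB27B (110535819) (-0.65). MLPH (110501274) and RAB27B (110525428) were then lower as well, by -0.74 and -0.79. Of the 19 tested copies 17 were lower with no overlap from this shorter list, 1 was higher and 1 overlapped. The share over all genes was not taken for the shorter list, so this count is no result about these copies. With the full list 92.8% of all genes tested were lower. MLPH (110513724) was the copy still higher with no overlap, by 1.12. MLPH (110495612) then overlapped between the ages, at 0.0133 to 0.0201 times the sum at day 1 and 0.0197 to 0.0216 times at day 90. The retinal pigment epithelium markers given above fell between the same libraries, and the part of that tissue in the list's sum was not tested. Melanophore and eye sources of the list's RNA cannot be told apart here.

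Companions of these genes, taken as 5 lists of 152 rows, moved in both directions. Of 119 tested, 47 were higher at day 90, 35 lower and 37 not past the threshold, with a median log2 fold change of 0.13, against 32.5% higher and 35.4% lower among all genes tested. Library size alone gave 28 and 53, and epidermis scaling gave 4 and 109. The shares over all genes tested were 20.5% and 50.1%, and 4.0% and 89.6%. Of the falling genes named below, Rph3a, myrip, MYO6, MYO7A, STX3, KIF3B and Dync1li2 passed the filter through their day 1 libraries alone.

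Of the genes that sort cargo to the melanosome, 20 of 34 tested were higher and 2 lower, with a median of 0.47. Library size alone gave 12 and 8, and epidermis scaling 1 and 30. HPS5 (110521177), which passed the filter through its day 90 libraries alone, and HPS3 (110524828), both of the BLOC-2 complex, rose from 0.73 ± 0.08 to 3.92 ± 0.47 FPKM and from 1.61 ± 0.21 to 4.74 ± 0.70 FPKM (edgeR, adjusted p = 2.85e-07 and 2.8e-06). dtnbp1a (110506432), for dysbindin of BLOC-1, rose from 5.90 ± 0.24 to 16.0 ± 0.1 FPKM, and AP3M1 (110502228), for a subunit of the AP-3 coat, from 5.61 ± 0.86 to 13.1 ± 1.5 FPKM. STX3 (110488822), a membrane fusion protein, fell from 1.41 ± 0.10 to 0.27 ± 0.06 FPKM and Snapin (110488289), of BLOC-1, from 11.1 ± 0.4 to 4.39 ± 0.88 FPKM.

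Of the genes that switch, lipid-modify or recycle Rabs, 10 of 23 tested were higher and 6 lower (median 0.21; with library size alone 5 and 9, with epidermis scaling 0 and 22). HPS1 (110502675) and Hps4 (110535919), which together activate Rab32 and Rab38 in mammals, rose from 3.50 ± 0.67 to 8.96 ± 0.71 FPKM and from 4.22 ± 0.49 to 7.30 ± 0.16 FPKM (log2 fold changes 1.74 ± 0.14 and 1.18 ± 0.12, edgeR adjusted p = 3.78e-06 and 1.8e-05). Chml (110534169), an escort protein for Rab prenylation, rose from 9.42 ± 0.26 to 17 ± 2.3 FPKM. With epidermis scaling HPS1 stood at -0.14, Hps4 at -0.69 and Chml at -0.64.

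Among other partners of Rab27 and Rab3, 4 of 14 tested were higher and 5 lower (median 0.21; with library size alone 4 and 5, with epidermis scaling 1 and 11). Copies of Rph3a, for a synaptic vesicle protein, fell, as did myrip, which links Rab27a to myosin VIIa in the mouse eye. Rph3a (110525685) fell from 1.79 ± 0.09 to 0.13 ± 0.03 FPKM, Rph3a (110536051) from 1.88 ± 0.11 to 0.15 ± 0.05 FPKM and myrip (110490951) from 1.84 ± 0.36 to 0.07 ± 0.03 FPKM. Rph3a (110523833) went from 317 reads over the day 1 libraries to 0, at least 78-fold lower against a floor of 3 counts over the age. Neuron and eye markers fell between the same libraries, as given above, and their part was not tested. The higher members were chosen for mention after their values were seen: SYTL1 (110496486) and SYTL2 (110503975), for synaptotagmin-like effectors of Rab27, SYTL2 (110533413) and SYTL2 (110507794), the last of which passed the filter through day 90 alone. SYTL2 (110503975) stood at 1.39, 1.97 and 1.02 FPKM at day 1 and at 4.29, 6.02 and 8.41 at day 90 (2.46 ± 0.26), lowest and highest in the same libraries as Rab27a. That order is not particular to these genes, as 8 of the 16 gene lists summed here showed it.

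Of 14 tested actin motors and nucleators 5 were higher and 4 lower (median -0.05; with library size alone 3 and 8, with epidermis scaling 1 and 13). Myo5b (110537143), for a myosin V of epithelia, rose from 2.76 ± 0.30 to 6.27 ± 1.32 FPKM (1.56 ± 0.14 on the log2 scale, adjusted p = 7.59e-06 by edgeR, but -0.33 with epidermis scaling), and FMN2 (110532693), for a formin, which passed the filter through its day 90 libraries alone, from 0.19 ± 0.03 to 1.91 ± 0.09 FPKM. MYO6 (110498124) and MYO7A (110534865), for other unconventional myosins, fell from 3.61 ± 0.07 to 0.59 ± 0.09 FPKM and from 2.05 ± 0.10 to 0.36 ± 0.03 FPKM.

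Of the microtubule motors, 8 of 34 tested were higher and 18 lower (median -0.35; with library size alone 4 and 23, with epidermis scaling 1 and 33). KIF3B (110505840) and KIF3B (110497609), for a subunit of kinesin-2, which spreads melanosomes in frog melanophores, fell from 8.54 ± 0.47 to 0.75 ± 0.09 FPKM and from 4.85 ± 0.49 to 0.04 ± 0.03 FPKM (edgeR, adjusted p = 1.26e-07 and 2.54e-07). KLC2 (110531564), a kinesin-1 light chain, fell from 8.97 ± 0.76 to 1.58 ± 0.07 FPKM. Dync1li2 (110535576), called a dynein light intermediate chain 1-like protein, went from 624 reads over the day 1 libraries to 1, a ratio of 459 (exact 95% interval 82 to 18158, counting error only). DYNC1I2 (110508447) and Dctn1 (110500384), of dynein and dynactin, which draw melanosomes inward in fish melanophores, rose from 1.22 ± 0.59 to 16.4 ± 1.9 FPKM and from 8.97 ± 0.71 to 16.7 ± 0.3 FPKM, with Dctn1 at -0.60 under epidermis scaling.

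**Figure D5:**
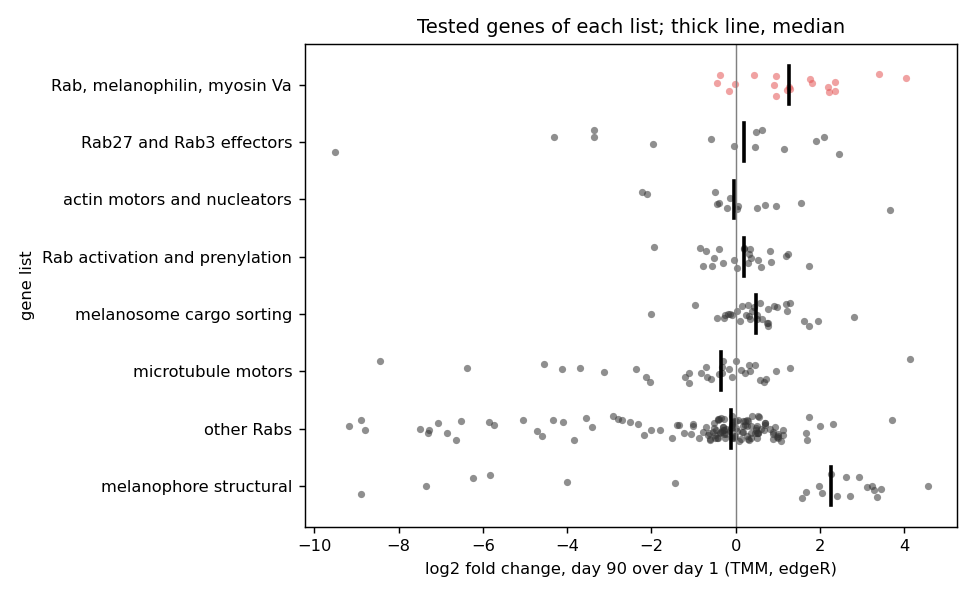
Log2 fold change of day 90 over day 1 of each tested gene (points, with random vertical spread) in the group described here, its 5 companion lists, the other Rabs and the melanosome genes, with the median as a thick line. The medians are 1.26 for the group, 0.47 for cargo sorting, -0.35 for microtubule motors, -0.11 for the other Rabs and 2.25 for the melanosome genes; points far to the left include genes with no read at day 90, whose fitted fold depends on a prior count.

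The rest of the Rab family gives a further comparison. Of 134 tested rows with another Rab symbol 38 were higher at day 90, 50 lower and 46 not past the threshold, with a median log2 fold change of -0.11, against 32.5% higher and 35.4% lower among all genes tested. Library size alone gave 17 higher and 74 lower, and epidermis scaling 2 and 128. Over all genes tested, library size alone gave 20.5% higher and 50.1% lower, and epidermis scaling 4.0% and 89.6%. Of the 11 tested Rab27a, Rab27b, RAB32 and Rab38 copies 10 were higher and 0 lower with TMM factors and with library size alone, and 2 were higher and 5 lower under epidermis scaling. The difference between these copies and the other Rabs was not tested.

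By distance between centred, depth-scaled log2 counts over the 6 libraries, MLPH (110495612) was nearest to a row with an aquarius-like product name (MSTRG.30668), MUC5AC (MSTRG.3600) and Oca2 (110523057), for a melanosome membrane protein, at distances of 0.249, 0.291 and 0.297. RAB27B (110535819) and RAB32 (110522381) were each among the 3 genes nearest to the other, at 0.132. Rab27a (110526430) was nearest to Arhgap27 (MSTRG.34819), edar (110520359) and B4galnt3 (110496319). These distances rest mostly on the difference between the ages, and 463 genes lay within 0.5 of Rab27a (110526430) and 30 of MLPH (110495612).

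By the FDR in the authors' deposited table, 14 of the 23 copies were higher at day 90 and 3 lower at a threshold of 0.05. Of 43862 rows 55.7% passed in either direction, and the share in each direction was not taken. The lower ones in the authors' deposited table were MYO5A (MSTRG.37209), Myo5a (110524289) and Rab32 (110500312).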

How the data were processed

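RNA-seq of dorsal skin gave 3 libraries per age, at 1 and 90 days. The submitters' processing notes name Bowtie2 2.2.8 and TopHat2 2.1.1, with roles not stated. The authors deposited 1 table with a read count and an FPKM value per gene and library, and with their own log2 fold change and FDR (an adjusted p-value) per gene. The sources used here give no genome build, strand setting or treatment of reads shared by near-identical copies, so salmonid gene copies may exchange reads and no coordinates are printed. Of 20 members with an NCBI number, 20 matched the RefSeq table of USDA_OmykA_1.1, used for names only.

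Counts were tested with edgeR 4.0.16 (quasi-likelihood, TMM factors, R 4.3.3) and Benjamini-Hochberg adjustment over all 29436 genes with FPKM of at least 1 in at least 3 of 6 libraries. SE is the log2 fold change over the square root of F. Alternatives were library size alone, counts scaled to the epidermis list, DESeq2 1.42.0, limma 3.58.1 on log2(FPKM + 1) and log2(FPKM + 0.1), other filters, the replicate number as a block and leaving out each library. Ratios within libraries were tested by exact permutation with scipy 1.17.1. The code was tested on simulated data.

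All members were named. From each companion list came at most 4 tested genes, by smallest adjusted p, plus at most 2 whose change went farthest in the direction opposite to the list's median, and for the most abundant tested copy of each gene the 3 nearest genes by distance. Some genes that this rule names are not reported here. The members and lists were chosen with earlier results of these data known. Total counts were 16157312 to 18960866 a library, and intervals and floors cover counting error only.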

Additional observations from a re-analysis of the deposited data

How the results depend on the processing

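The members' count of 14 higher and 1 lower was the same with DESeq2, with the replicate number as a block and in 5 of the 6 fits that leave out a library. It was 15 higher without day 90 replicate 1, through Rab27a (110506555). Leaving out a library gave 14 to 15 members higher and 1 lower, 38 to 45 companions higher and 31 to 38 lower. The replicate block called 8763 genes higher and 9791 lower. Same-numbered libraries did not deviate together (r = -0.0886, 0.00411 and -0.123), and differently numbered ones gave r from -0.0733 to 0.118. With 3 libraries per age this cannot tell whether the numbers stand for a pairing.

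The split differed between scalings and between filters. Of all genes tested, 9563 were higher and 10420 lower with TMM factors. Library size alone gave 6022 higher, limma 6084 and 5989 with pseudocounts of 1 and 0.1, a filter at FPKM of at least 5 gave 4706 higher and 5036 lower, and epidermis scaling 1177 higher and 26366 lower. Members higher numbered 4 with epidermis scaling and 8 of 10 tested with the FPKM 5 filter. For that filter the share over all genes was not taken, so the 8 of 10 has no like share beside it. Members lower numbered 10 with epidermis scaling and 3 with library size alone, both limma fits and no filter. Companions were 28 higher and 53 lower with library size alone, 28 and 54 with limma and a pseudocount of 1, 28 and 53 with 0.1, 4 and 109 with epidermis scaling and 24 and 16 with the FPKM 5 filter, which tests fewer genes. The cause of these changes was not tested.

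Epidermis scaling changed the sign of 9 members. Rab27a (110526430) at -0.63, Rab27a (110506555) at -1.44 and Myo5a (110500932) at -0.91 were past the threshold as lower. So were RAB27B (110524935) at -0.97, RAB32 (110529894) at -0.91 and Rab38 (110534155) at -0.59. RAB27B (110536882) at -0.061, Rab38 (110534809) at -0.10 and Rab38 (110507979) at -0.63 did not pass (edgeR, adjusted p = 0.704, 0.594 and 0.0772). The same scaling changed the sign of Myo5b (-0.33), Hps4 (-0.69), Chml (-0.64) and Dctn1 (-0.60), which passed as lower. HPS1 (-0.14), dtnbp1a (-0.14) and AP3M1 (-0.25) changed sign without passing (edgeR, adjusted p = 0.394, 0.362 and 0.119). Values near 0 changed sign with single libraries left out. Leaving out each in turn, Myo5a (MSTRG.37208) ranged from -0.54 to 0.16 and Myo5a (110511859) from -0.099 to 0.028 (0.038 with no filter). Relative to the list of melanosome genes, MLPH (110501274) ranged from -0.31 to 0.050 and RAB27B (110525428) from -0.24 to 0.018. RAB27B (110535819) ranged from -0.037 to 0.082 and RAB32 (110522381) from -0.058 to 0.067. Without the falling rows of that list RAB27B (110535819) stood at -0.65 and RAB32 (110522381) at -0.66, after a shift that their removal gives to every copy. Ratios of summed counts in place of FPKM kept their direction. Taking members by product name, or only those whose product names the same gene, left the counts within 1.5 times. Depth limits the 4 copies below the filter and Rab38 (110507979).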
